A study of Mus musculus with 6 samples.

Results

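The comparison of wild-type (WT) matrix cells with WT outer root sheath (ORS) cells of mouse skin rests on 2 of the 6 arrays of the series, 1 array for each population. Both samples are FACS-sorted skin cells of mice labelled Ezh1/2 WT, aged 14 days, of both sexes and of a mixed background of C57B6 and CD1. The other 4 arrays hold WT basal epidermis and the 3 Ezh1/2 2KO populations (matrix, ORS and basal epidermis), all of the same age and background, with female mice alone labelled for 2KO basal epidermis and both sexes for the rest. Ezh1 and Ezh2 encode the histone methyltransferases of the Polycomb complex PRC2, and the labels do not name the Cre or promoter behind the 2KO. The labels also do not say how many mice gave a sample, whether the populations of one genotype came from the same mice, or which surface markers were used to sort the cells. The question here is how the 2 normal follicle lineages differ across all genes. Each value is the MAS5 signal, a linear array intensity, of the brightest probe set that names 1 gene. The floor was 83.2 units, the median signal of the 6 arrays, and lower signals were set to it before the log2 ratio of matrix over ORS was taken. Where one of the signals lay under the floor, the fold is a bound, given as at least so many fold. With 1 array per population there are no replicates to check a difference against, and none was tested. A difference of 2-fold or more is described as higher or lower.

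The hair follicle grows from the matrix, a collar of fast dividing cells that surrounds the dermal papilla at the base of the bulb and receives WNT, BMP and Sonic hedgehog signals there. Matrix cells differentiate upward into the hair shaft, which is built of hair keratins and keratin-associated proteins, and into the inner root sheath (IRS), which has its own keratins. The ORS is the outermost epithelial layer of the follicle, is continuous with the basal layer of the epidermis, rests on a basement membrane, and houses the bulge, where follicle stem cells reside.

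The labels were first set against the marker genes. Krt35, a type I hair keratin of the forming shaft, read 19670.4 in matrix, against 645 in ORS and 892 in basal epidermis. Msx2, a homeobox factor of the matrix and a BMP target, read 6424 in matrix, against 269 in ORS and 268 in basal epidermis. Both genes stood apart on the matrix array, by 30.5-fold and 23.9-fold over ORS. Sox9, a transcription factor of the ORS and its stem cells, read 186 in matrix, against 5089 in ORS and 3017 in basal epidermis, and was 27.4-fold lower in matrix than in ORS. Krt15, a keratin of basal and bulge cells, read 2994 in matrix, against 22416 in ORS and 28535 in basal epidermis, and was 7.49-fold lower in matrix than in ORS. All 4 markers lay on the side their labels give, while Sox9 and Krt15 did not separate ORS from basal epidermis by 2-fold.

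The 2 arrays were alike in scale and RNA quality. Each had a trimmed mean of 500 units, with a median signal of 76.2 in matrix and 83.1 in ORS, and 48.6% of probe sets in matrix and 49.98% in ORS at or above the floor. The ratio of the 3-prime to the 5-prime control probe sets was 1.49 for beta-actin in matrix and 1.43 in ORS, and 0.747 for Gapdh in matrix and 0.754 in ORS. The spiked hybridisation controls had a geometric mean of 3248 in matrix and 4081 in ORS. Since each array was scaled to 1 total before deposit, a ratio is relative to the total signal of its array. In these bulk samples, fewer cells of a type and less RNA per cell cannot be told apart.

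Of 18193 genes, 11433 were measured, meaning above the floor in at least 1 of the 2 WT follicle populations. Of these, 983 (8.60%) were at least 2-fold higher in matrix and 1593 (13.9%) at least 2-fold lower, so that 22.5% differed either way. At 4-fold, 179 genes were higher and 608 lower. The other 77.5% of genes stayed within 2-fold, and the median log2 ratio was 0.06 with an interquartile range of -0.48 to 0.50. The higher genes made up 38.2% of the differing genes with the deposited scaling, 47.3% with arrays scaled to a common median, 61.3% with arrays scaled to the hybridisation controls and 38.3% after quantile normalization, so the balance between the directions is not fixed by these data. The same scalings moved the median of all genes to 0.18, 0.36 and 0.08 on the log2 scale. The ORS signal was below the floor for 128 (13.0%) of the higher genes, and the matrix signal was below it for 395 (24.8%) of the lower genes, and these genes could only have gone one way. Probe sets of the same gene mostly gave the same sign. Among the higher genes with 2 or more measured probe sets, 428 of 443 had all of them above 0, and among the lower genes 708 of 741 had all of them below 0. The brightest probe set made the call of each gene, so 1 of those counted lay on the called side by choice. The others read the same 2 samples, and no share for genes not chosen this way stands beside these counts.

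**Figure D1:**
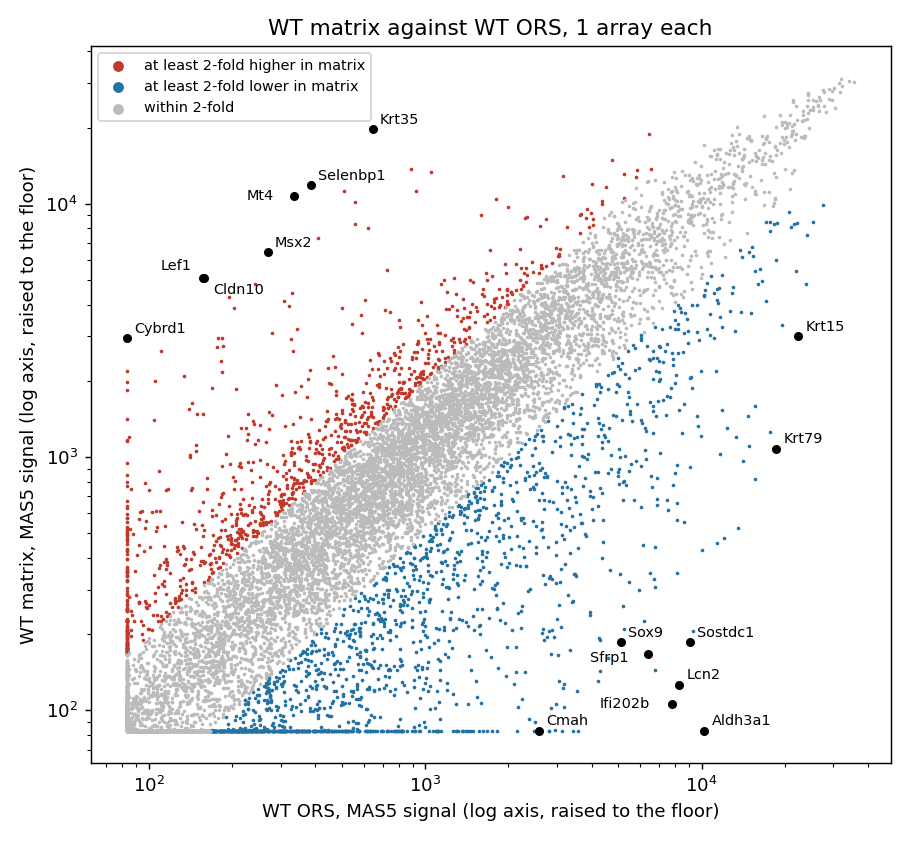
MAS5 signal of each measured gene in WT matrix (vertical axis) against WT ORS (horizontal axis), both on log axes and raised to the floor, with 1 array each. Red points are the 983 genes at least 2-fold higher in matrix, blue points the 1593 genes at least 2-fold lower, and grey points the rest; Lef1 and Cldn10 nearly coincide at the upper left, and Aldh3a1 lies at the floor of the matrix axis.

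The genes with the largest excess in matrix were a mixture of regulators, structural genes and genes of metal and membrane biology. Lef1, the transcription factor that carries WNT signals to DNA with beta-catenin, read 5115 in matrix and 159 in ORS (32.3-fold). Mt4, a metallothionein of stratified epithelia that binds zinc and copper, read 10691 in matrix and 334 in ORS (32.02-fold). Cldn10, a claudin that forms ion channels between cells, read 5086 in matrix and 156 in ORS (32.5-fold). These 3 genes were above the floor on both arrays. Cybrd1, a ferric reductase of the plasma membrane, read 2949 in matrix and 74.4 in ORS (at least 35.4-fold). Dclk3, a doublecortin-like kinase, read 2188 in matrix and 71.1 in ORS (at least 26.3-fold), and Prr5l, a partner of the TOR complex, read 1978 in matrix and 75.2 in ORS (at least 23.8-fold). For Cybrd1, Dclk3 and Prr5l the ORS signal lay below the floor, so their folds are lower bounds. Kif26a, an atypical kinesin with 1 probe set, was also below the floor in ORS, at 1839 in matrix and 15.6 in ORS.

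The counts of each gene list stand beside the shares of all measured genes, 8.60% higher and 13.9% lower. Transcription factors known from the matrix and its descendants formed the first list. Of 18 such genes, 17 were measured, 12 were higher in matrix and 2 lower, with a median log2 ratio of 2.33, and 16 were above the floor on both arrays with a median of 2.22. Msx1, the partner of Msx2, read 4277 in matrix and 195 in ORS (21.9-fold). Dlx3, a homeobox factor needed for the shaft and IRS, read 2951 in matrix and 184 in ORS (16.03-fold). Hoxc13, a Hox factor that acts on hair keratin genes, read 5489 in matrix and 726 in ORS (7.56-fold). In basal epidermis Msx1, Dlx3 and Hoxc13 read 130.2, 94.2 and 189, so that ORS exceeded basal epidermis most clearly for Hoxc13. Foxn1, the factor mutated in nude mice, read 671 in matrix and 41.3 in ORS (at least 8.07-fold). Of 2 Foxn1 probe sets, 1 was at least 2-fold higher, and the other had a log2 ratio of 0.58. Dlx2 read 3640.3 in matrix and 584 in ORS (6.23-fold), and Cux1, a homeobox factor of the IRS, read 3754 in matrix and 744 in ORS (5.04-fold). Sp6, also called epiprofin, read 1545 in matrix and 139 in ORS (11.1-fold). The exceptions were Bcl11b, a zinc finger repressor, at 418 in matrix and 3329.5 in ORS (7.96-fold lower), and Vdr, the vitamin D receptor, at 1483 in matrix and 5489.7 in ORS (3.70-fold lower). All 4 Bcl11b probe sets were measured and all 4 were at least 2-fold lower in matrix.

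Structural genes of the hair shaft followed Krt35. Of 15 hair shaft keratins, 12 were matched, 9 were measured, 6 were higher in matrix and 0 lower, with a median log2 ratio of 2.39. Krt36, a type I hair keratin, read 2001 in matrix and 105 in ORS (19.05-fold). Krt33a read 2169 in matrix and 183 in ORS (11.8-fold), Krt31 read 1303 in matrix and 216 in ORS (6.04-fold), and the type II hair keratin Krt83 read 754 in matrix and 143 in ORS (5.26-fold). Krt32, a hair keratin of the cuticle, was the exception among those named, at 287 in matrix and 448 in ORS, with 1528 in basal epidermis. Hair keratins are close in sequence, so a probe set may also bind the transcripts of its neighbours. Of 56 keratin-associated proteins, the sulphur-rich or glycine-tyrosine-rich matrix in which the keratin filaments of the shaft are set, 38 were matched and only 10 were measured, 6 higher and 1 lower. Krtap8-1 read 11200.4 in matrix and 509.6 in ORS (21.98-fold), and Krtap7-1 read 2629 in matrix and 111 in ORS (23.8-fold). Krtap11-1 read 2716 in matrix and 176 in ORS (15.5-fold), and Krtap15 read 2739 in matrix and 185 in ORS (14.8-fold). Krtap17-1 went the other way, at 163 in matrix, 1734 in ORS and 65.5 in basal epidermis, 10.6-fold lower in matrix. The remaining 28 matched keratin-associated protein genes were below the floor on both arrays.

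Keratins of the inner sheath were as far apart. Of 7 matched IRS keratins, all 7 were measured, 6 were higher in matrix and 0 lower, with a median log2 ratio of 3.22. Krt25 read 13303 in matrix and 1052 in ORS (12.6-fold), Krt28 read 10128 in matrix and 557 in ORS (18.2-fold), and Krt71 read 4429 in matrix and 331 in ORS (13.4-fold). Krt27 read 3193 in matrix and 342 in ORS (9.34-fold), Krt73 read 2625 in matrix and 332 in ORS (7.91-fold), and Krt26 read 575 in matrix and 57.9 in ORS (at least 6.91-fold). Krt72 stayed near the floor, at 108 in matrix and 89.3 in ORS. Other proteins of the shaft and sheath gave 8 higher and 0 lower of 9 measured, with a median log2 ratio of 3.24. Selenbp1, a selenium-binding protein, read 11851 in matrix and 385 in ORS (30.7-fold), and S100a3, a calcium-binding protein of the hair cuticle, read 4822 in matrix and 242 in ORS (19.9-fold). Padi3, which converts arginine to citrulline in sheath proteins, read 4144 in matrix and 307 in ORS (13.5-fold), and its substrate Tchh, trichohyalin, read 4985 in matrix and 1674 in ORS (2.98-fold). Tgm3, a transglutaminase that crosslinks trichohyalin, read 1153 in matrix and 70.9 in ORS (at least 13.9-fold), but 1469.8 in basal epidermis.

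The start sites of these structural genes are shown because many carry the same core promoter letters. Sequences are the RefSeq promoters of assembly GRCm38.p6, from 250 bases before to 50 after the gene start, written 5′ to 3′ on the gene's own strand. The TATA box was searched as TATAAA on both strands and is in capitals. Genes shown are Krt31 (chr11:100050502-100050801), Krt25 (chr11:99322902-99323201), Krt71 (chr15:101743048-101743347) and Krtap8-1 (chr16:89487903-89488202), all 4 on the minus strand. They were picked after the letters were seen.
Krt31: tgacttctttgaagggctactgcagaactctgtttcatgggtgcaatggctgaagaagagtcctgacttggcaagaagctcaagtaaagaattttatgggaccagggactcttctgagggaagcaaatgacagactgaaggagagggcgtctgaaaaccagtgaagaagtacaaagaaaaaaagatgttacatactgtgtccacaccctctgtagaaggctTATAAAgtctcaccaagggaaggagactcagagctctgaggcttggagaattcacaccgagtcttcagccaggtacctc
Krt25: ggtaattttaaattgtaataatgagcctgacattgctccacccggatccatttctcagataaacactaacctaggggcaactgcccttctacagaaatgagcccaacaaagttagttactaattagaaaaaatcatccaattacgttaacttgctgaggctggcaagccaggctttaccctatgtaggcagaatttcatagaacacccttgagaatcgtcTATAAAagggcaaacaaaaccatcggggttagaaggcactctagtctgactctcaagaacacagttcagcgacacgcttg
Krt71: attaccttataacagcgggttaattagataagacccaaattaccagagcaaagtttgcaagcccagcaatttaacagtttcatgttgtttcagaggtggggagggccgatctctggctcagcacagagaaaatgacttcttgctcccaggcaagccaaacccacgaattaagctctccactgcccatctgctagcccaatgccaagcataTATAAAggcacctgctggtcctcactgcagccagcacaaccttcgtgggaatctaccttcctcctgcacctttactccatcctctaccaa
Krtap8-1: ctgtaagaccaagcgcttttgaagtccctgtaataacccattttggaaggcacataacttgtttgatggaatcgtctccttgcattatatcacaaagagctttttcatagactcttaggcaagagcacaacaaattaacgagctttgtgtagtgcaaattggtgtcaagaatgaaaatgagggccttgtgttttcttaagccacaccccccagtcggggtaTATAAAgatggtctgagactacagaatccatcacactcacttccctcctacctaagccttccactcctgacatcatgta
The motif begins at position -29 in Krt31, -30 in Krt25, -40 in Krt71 and -29 in Krtap8-1, counted from the gene start. Among the 18 keratin and keratin-associated genes of shaft and sheath that were higher in matrix, 14 had a promoter in the table, and 11 of these 14 (78.6%) held TATAAA. The share was 7.16% among the 9273 measured genes with a promoter, 8.93% among the higher genes and 10.3% among the lower ones. With the motif start between -40 and -20, the share was 57.1% (8 of 14), against 1.54% of the measured genes. TATAAA is therefore frequent in this keratin group and about as frequent among higher as among lower genes. These are matches of letters, and no factor or use of the site was measured. The LEF/TCF core, searched as CTTTGA on both strands, was in 6 of the 14 promoters (42.9%), against 11.5% of the measured genes.

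Genes of the companion layer and upper follicle mostly lay on the ORS side. Of 11 measured, 8 were lower in matrix and 1 higher, with a median log2 ratio of -2.70. Krt6a, a keratin of the companion layer and of stressed epidermis, read 478 in matrix and 12078 in ORS (25.2-fold lower). Krt79, a keratin of the upper follicle, read 1077 in matrix and 18647 in ORS (17.3-fold lower), and Gata6, a factor of the same region, read 61.2 in matrix and 1361 in ORS (at least 16.4-fold lower). Lrig1, a receptor antagonist that marks junctional zone progenitors, read 429 in matrix and 10072 in ORS (23.5-fold lower), and Plet1 read 1591 in matrix and 15542 in ORS (9.77-fold lower). Of 3 Plet1 probe sets, 2 were at least 2-fold lower, and the highest log2 ratio was 0.16. In basal epidermis these 5 genes also read above matrix. Krt75, the companion layer keratin, was the single gene of the list higher in matrix, at 7331 in matrix, 407 in ORS and 210.2 in basal epidermis (17.99-fold), and it rests on 1 probe set.

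**Figure D2:**
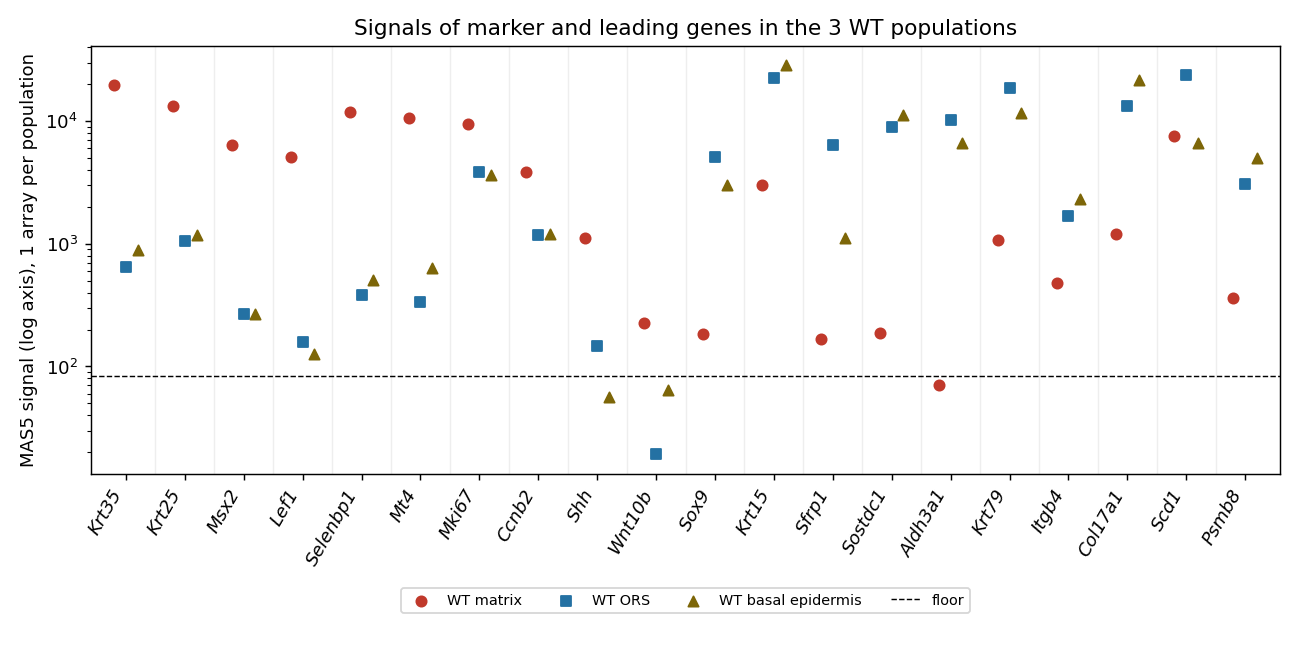
MAS5 signal (log axis) of 20 marker and leading genes in WT matrix, WT ORS and WT basal epidermis, with 1 array per population and the floor of 83.2 as a dashed line. The first 10 genes have their highest point in matrix, and the last 10 have their lowest point in matrix except Scd1, which in matrix lies a little above basal epidermis.

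The basal keratins and most listed regulators of follicle stem cells lay on the ORS side. Krt14 read 4805 in matrix and 23776 in ORS (4.95-fold lower), and its partner Krt5 read 8423 in matrix and 22122 in ORS (2.63-fold lower). All 3 basal keratins including Krt15 were lower in matrix. Of 12 transcription factors of ORS and stem cells, all 12 were above the floor on both arrays, 8 were lower in matrix and 1 higher, with a median log2 ratio of -1.78. Foxc1, which keeps bulge stem cells quiescent, read 111 in matrix and 2243 in ORS (20.3-fold lower), and Nfatc1, which does so too, read 106 in matrix and 1291 in ORS (12.2-fold lower). Tbx1 read 295 in matrix, 2345 in ORS and 198 in basal epidermis, and Tcf7l1, a repressing TCF of the stem cell state, read 304 in matrix, 1736 in ORS and 184 in basal epidermis. Tbx1 and Tcf7l1 thus separated ORS from both other WT populations on their brightest probe sets, unlike Nfatc1 at 1203 in basal epidermis. Of 2 Tcf7l1 probe sets, 1 was at least 2-fold lower in matrix than in ORS, and the other had a log2 ratio of -0.73. Of 5 Nfatc1 probe sets, 3 were at least 2-fold lower, and the smallest gap was a log2 ratio of -0.68. Nfib, a chromatin regulator of the bulge, read 4049 in matrix and 11474 in ORS (2.83-fold lower). Lhx2, a LIM homeobox factor of the follicle, read 2644 in matrix, 4349 in ORS and 141 in basal epidermis, within 2-fold between the follicle populations. Foxp1 was the gene higher in matrix, at 3931 in matrix and 1246 in ORS (3.15-fold).

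Surface and secreted genes of the ORS and its stem cells gave 15 lower and 2 higher of 19 measured, with a median log2 ratio of -2.13. Sfrp1, a secreted WNT inhibitor, read 166 in matrix, 6382 in ORS and 1126 in basal epidermis (38.3-fold lower in matrix than in ORS). Postn, periostin of the extracellular matrix, read 458 in matrix and 11372 in ORS (24.8-fold lower). Cd34, a surface marker of mouse bulge cells, read 125 in matrix, 1036 in ORS and 81.5 in basal epidermis, and Lgr5, a receptor of active follicle stem cells, read 558 in matrix, 2450.3 in ORS and 185 in basal epidermis. The last 2 genes were higher in ORS than in both other WT populations. Aldh1a3, a retinaldehyde dehydrogenase, was listed with the ORS but read 3876 in matrix and 203 in ORS (19.1-fold higher), and all 3 of its probe sets were at least 2-fold higher in matrix. Wif1, a secreted WNT inhibitor, read 1239 in matrix and 228 in ORS (5.43-fold higher).

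Beyond the lists, the lowest ratios belonged to genes of aldehyde and alcohol metabolism, defence and transport. Aldh3a1, an aldehyde dehydrogenase, read 70.4 in matrix and 10229 in ORS (at least 123-fold lower). Adh1 read 83.9 in matrix and 2944 in ORS (35.1-fold lower), and Adh7 read 67.6 in matrix and 2814 in ORS (at least 33.8-fold lower); both encode alcohol dehydrogenases that can also oxidise retinol. The matrix signals of Aldh3a1 and Adh7 lay below the floor and that of Adh1 just above it. Lcn2, a siderophore-binding defence protein, read 126 in matrix and 8296 in ORS (65.8-fold lower), and Slc16a1, a lactate and pyruvate transporter, read 206 in matrix and 9269.9 in ORS (45.1-fold lower). Emb, a partner protein of such transporters, read 70.5 in matrix and 3416 in ORS (at least 41.1-fold lower). Igfbp2, which binds insulin-like growth factors, read 145 in matrix and 6789.6 in ORS (46.98-fold lower), and Ifi202b, an interferon-inducible DNA-binding protein, read 106 in matrix and 7832 in ORS (74.1-fold lower).

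Genes that anchor epithelium to its basement membrane were lower in matrix. Of 20 measured integrin, laminin and hemidesmosome genes, 13 were lower and 0 higher, with a median log2 ratio of -1.74. Col17a1, the hemidesmosomal collagen, read 1200.0 in matrix and 13286 in ORS (11.1-fold lower), and Dst, the hemidesmosomal plaque protein, read 911 in matrix and 9054 in ORS (9.94-fold lower). Itga6 and Itgb4, the integrin pair of hemidesmosomes, were 3.54-fold and 3.46-fold lower, with Itga6 at 3033 in matrix and 10746 in ORS and Itgb4 at 483 in matrix and 1673 in ORS. Lamb3, a chain of laminin 332, read 209 in matrix and 2656 in ORS (12.7-fold lower), and Col7a1, the anchoring fibril collagen, read 147 in matrix and 1836 in ORS (12.5-fold lower). Npnt, nephronectin, and Itgb8 showed the largest gaps of the list, with Npnt at 167 in matrix and 2843 in ORS and Itgb8 at 131 in matrix and 3035 in ORS. Basal epidermis exceeded matrix for each of these 8 genes.

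Among cell division genes, most mitosis genes and a minority of replication genes were at least 2-fold higher in matrix. Of 29 measured mitosis genes, 26 were higher and 0 lower, with a median log2 ratio of 1.51, and all 29 were above the floor on both arrays. Birc5, survivin, read 5109 in matrix, 1275 in ORS and 1636 in basal epidermis (4.01-fold over ORS). Mki67, the Ki-67 antigen, read 9534 in matrix, 3834 in ORS and 3633 in basal epidermis (2.49-fold), and Ccnb2, cyclin B2, read 3843 in matrix, 1185 in ORS and 1199 in basal epidermis (3.24-fold). For these genes ORS and basal epidermis lay close together and below matrix. Of 30 DNA replication genes, 9 were higher and 0 lower, with a median log2 ratio of 0.84. Cdc6, which licenses origins, read 432 in matrix and 128 in ORS (3.38-fold), and Mcm5, a subunit of the replicative helicase, read 7061 in matrix and 3733 in ORS (1.89-fold, under the 2-fold limit). Of 8 G1 cyclin and Myc family genes, 5 were higher and 1 lower. Mycl read 2946 in matrix and 178 in ORS (16.6-fold), and Mycn read 1849.9 in matrix and 206 in ORS (8.98-fold), whereas Myc read 1401 in matrix and 6027 in ORS (4.30-fold lower). The 3 members of the Myc family therefore did not move together. Of 6 measured cell cycle inhibitors, 2 were higher in matrix, Cdkn2b at 1163 in matrix and 227 in ORS (5.13-fold) and Cdkn1c at 196 in matrix and 86.4 in ORS (2.27-fold). Ribosome biogenesis genes gave 4 higher and 0 lower of 20, with a median log2 ratio of 0.80, and Nop56, a small nucleolar RNA protein, read 6705 in matrix and 2972 in ORS (2.26-fold).

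The promoters of mitosis genes are shown beside those of the keratins because most hold CCAAT, and TATAAA was found in none of them. CCAAT and the cell cycle homology region, searched as TTTGAA, are in capitals on either strand (ATTGG and TTCAAA on the other strand). The TTTGAA search overlaps the CTTTGA search of the LEF/TCF core. Genes shown are Cdc20 (chr4:118437294-118437593, minus strand), Ccnb2 (chr9:70421505-70421804, minus strand) and Ube2c (chr2:164769679-164769978, plus strand), from the same RefSeq table and again picked after their letters were seen. Cdc20 and Ube2c encode an activator and a ubiquitin-conjugating enzyme of the anaphase-promoting complex.
Cdc20: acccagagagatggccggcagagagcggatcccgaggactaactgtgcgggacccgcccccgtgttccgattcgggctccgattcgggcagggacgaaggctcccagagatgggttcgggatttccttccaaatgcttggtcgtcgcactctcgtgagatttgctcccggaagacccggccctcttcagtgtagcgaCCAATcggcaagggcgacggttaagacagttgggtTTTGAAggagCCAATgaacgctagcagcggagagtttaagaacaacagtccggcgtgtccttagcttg
Ccnb2: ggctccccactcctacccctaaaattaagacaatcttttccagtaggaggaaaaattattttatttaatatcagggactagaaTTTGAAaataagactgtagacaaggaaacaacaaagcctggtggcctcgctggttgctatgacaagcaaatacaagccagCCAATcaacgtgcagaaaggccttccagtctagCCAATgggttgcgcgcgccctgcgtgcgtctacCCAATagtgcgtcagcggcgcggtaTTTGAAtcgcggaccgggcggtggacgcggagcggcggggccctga
Ube2c: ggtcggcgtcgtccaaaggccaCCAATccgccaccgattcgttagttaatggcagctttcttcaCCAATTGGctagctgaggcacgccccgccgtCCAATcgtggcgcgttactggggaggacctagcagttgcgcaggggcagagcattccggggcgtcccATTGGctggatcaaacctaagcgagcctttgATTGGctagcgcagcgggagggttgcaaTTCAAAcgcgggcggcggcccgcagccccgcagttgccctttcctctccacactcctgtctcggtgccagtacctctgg
Cdc20 holds CCAAT at -53 and -8 with TTTGAA at -18, and Ccnb2 holds CCAAT at -87, -54 and -21 with TTTGAA at 5 and -167. Of the 26 mitosis genes higher in matrix, 21 had a promoter in the table, of which 18 (85.7%) held CCAAT, 16 (76.2%) held TTTGAA and 0 held TATAAA. Among the 9273 promoters of measured genes, 38.9% held CCAAT and 11.7% held TTTGAA. Among the 25 DNA replication promoters, 64.0% held CCAAT and 16.0% held TTTGAA. Among the 14 keratin and keratin-associated promoters, 8 (57.1%) held CCAAT and 7 held TTTGAA, so both motifs were above the share of all measured genes in either group, and TATAAA was the motif found in 11 of 14 keratin and 0 of 21 mitosis promoters.

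Signalling genes moved in both directions within most pathways. Of 37 measured WNT pathway genes, 14 were higher and 7 lower, with a median log2 ratio of 0.16. Among ligands, Wnt5a read 3084 in matrix and 279 in ORS (11.1-fold), Wnt11 read 667 in matrix and 157 in ORS (4.24-fold), and Wnt10b read 226 in matrix and 19.3 in ORS (at least 2.71-fold). Wnt9a and Wnt5b lay on the other side, with Wnt9a at 25.8 in matrix and 309.7 in ORS and Wnt5b at 33.95 in matrix and 302 in ORS. Of the receptors, Fzd5 read 4504 in matrix and 1198 in ORS (3.76-fold) and Fzd10 read 1032 in matrix and 189.9 in ORS (5.43-fold). Sostdc1, a secreted antagonist of BMP and WNT, read 186 in matrix and 9040.0 in ORS (48.6-fold lower), and Dkk3 read 50.01 in matrix and 801 in ORS (at least 9.63-fold lower). Axin2, a target and feedback inhibitor of the pathway, read 957 in matrix and 336 in ORS (2.85-fold higher). Notum, a further feedback inhibitor, which removes a lipid from WNT proteins, read 560.1 in matrix and 97.9 in ORS (5.72-fold higher). Myc and Lgr5, given above and also known as WNT targets, were lower in matrix, so the targets did not all lie on the matrix side. The TCF factors split, since Lef1 was higher in matrix and Tcf7l1 and Tcf7l2 were 5.71-fold and 3.20-fold lower.

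In the BMP pathway 9 of 21 measured genes were higher and 3 lower, with a median log2 ratio of 0.57. Bmp4 read 2085 in matrix and 134 in ORS (15.5-fold), and Bmp2 read 2205 in matrix and 383 in ORS (5.76-fold), with 6664 in basal epidermis. Bambi, a decoy receptor, read 8018 in matrix and 621 in ORS (12.9-fold), and the target Id1 read 14862 in matrix and 4748 in ORS (3.13-fold). The inhibitory Smad6 and Smad7 were 3.47-fold and 3.30-fold higher, and Fst, follistatin, which binds activin and BMP, read 1028 in matrix and 11693 in ORS (11.4-fold lower). Both named ligands and the named target and inhibitors inside the cell were thus higher on the matrix array, and 2 secreted antagonists, Fst and Sostdc1, were lower. In the hedgehog pathway 4 of 10 measured genes were higher and 2 lower. Shh, the ligand, read 1112 in matrix, 147 in ORS and 56.2 in basal epidermis (7.55-fold), and the targets Gli1 and Ptch1 read 656 and 4601 in matrix against 179 and 1974 in ORS (3.67-fold and 2.33-fold). Gas1 and Cdon, co-receptors for Shh, were lower, with Gas1 at 349 in matrix and 8133 in ORS (23.3-fold lower) and Cdon at 124 in matrix and 623 in ORS (5.02-fold lower). Of 3 Gas1 probe sets, 2 were at least 2-fold lower, and the smallest gap was a log2 ratio of -0.06. In the NOTCH pathway 5 of 16 measured genes were higher and 0 lower. Notch1, a receptor, read 8071 in matrix and 3927 in ORS (2.06-fold), and its target Hes1 read 3871 in matrix and 1381 in ORS (2.80-fold).

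The TGF-beta and activin list lay on the ORS side, with 9 lower and 0 higher of 17 measured and a median log2 ratio of -1.24, or -0.38 among the 13 genes above the floor on both arrays. Tgfbr3, betaglycan, a co-receptor, read 131 in matrix and 4219 in ORS (32.3-fold lower), and Tgfbr2, the ligand-binding receptor, read 515 in matrix and 2632 in ORS (5.11-fold lower). The ligands Tgfb3 and Inhbb, a chain of activin B, were at least 17.3-fold and 18.3-fold lower. Tgfbi, a secreted protein induced by the pathway, read 259 in matrix, 5207 in ORS and 16647 in basal epidermis. Of 13 measured EGF and FGF ligands and receptors, 1 was higher and 5 lower, and their median log2 ratio of -0.13 became 0.17 with scaling to the hybridisation controls. The higher count lay near the 8.60% of all measured genes. Fgf5, the factor that ends hair growth, was the higher one at 412 in matrix and 90.8 in ORS (4.54-fold), and Epgn, an EGF receptor ligand, read 1618 in matrix and 8657 in ORS (5.35-fold lower). Of 14 measured ephrins and Eph receptors, 2 were higher and 4 lower, among them Efnb1 (3.23-fold higher) and Ephb6 (14.3-fold lower). Cytokines and chemokines gave 11 lower and 2 higher of 16. Ccl2 and Cxcl12, which attract leukocytes, were 27.8-fold and 12.6-fold lower, at 89.7 and 272 in matrix against 2495 and 3426 in ORS. Kitl, the ligand of the melanocyte receptor Kit, was higher at 10468 in matrix, 1797 in ORS and 1547 in basal epidermis (5.83-fold).

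**Figure D3:**
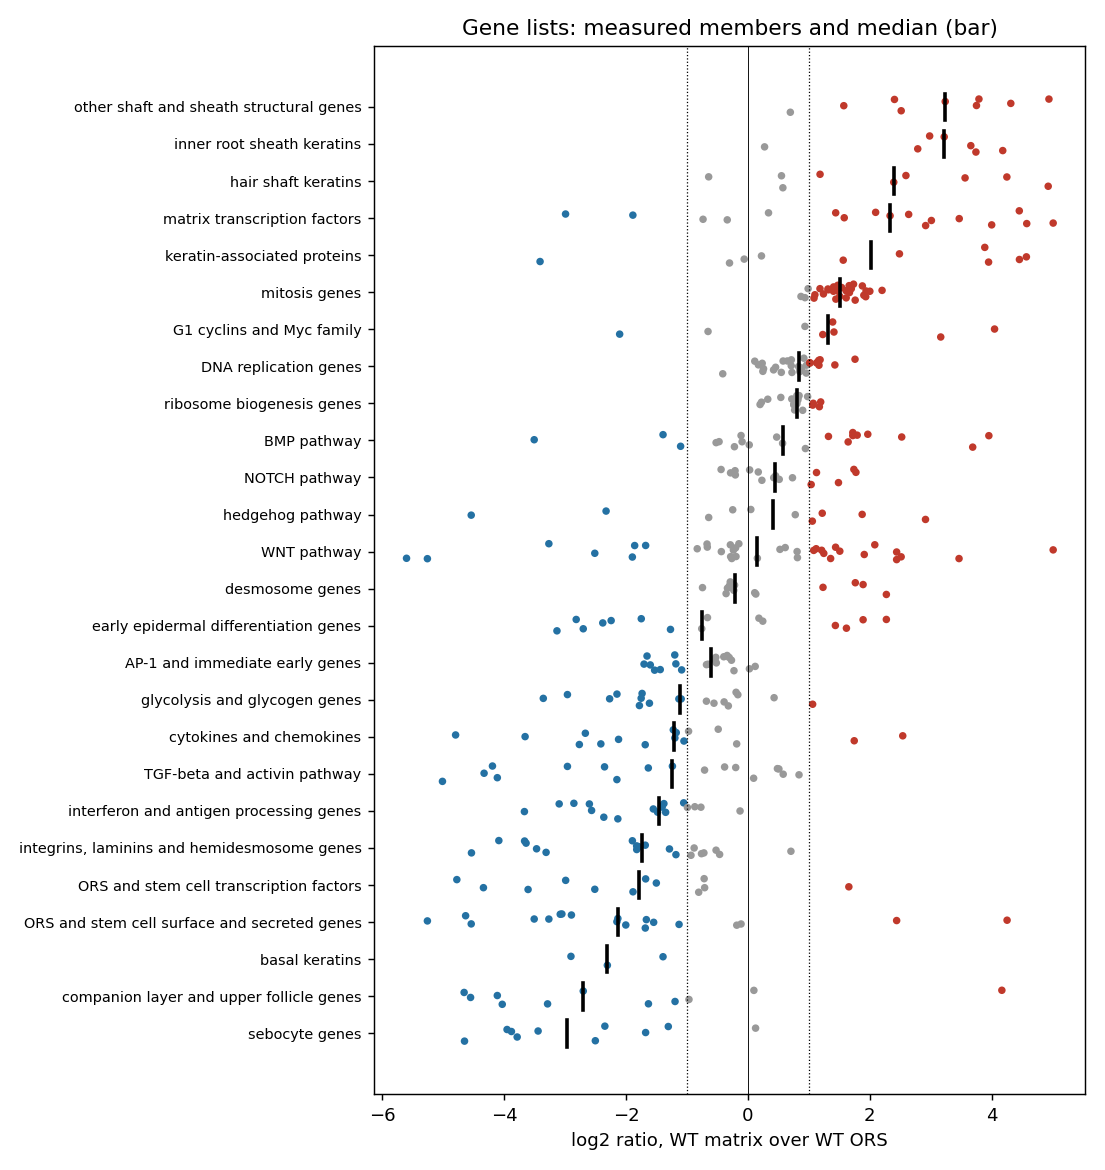
Log2 ratio of WT matrix over WT ORS (horizontal axis) for the measured members of 26 gene lists, 1 point per gene and a black bar at each median. Points at or beyond the dotted lines differ by at least 2-fold; medians range from 3.24 for other shaft and sheath structural genes to -2.97 for sebocyte genes.

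Programs of the interfollicular epidermis were split. Of 15 measured early differentiation genes, 4 were higher in matrix and 7 lower, with a median log2 ratio of -0.76. Krt77, a suprabasal keratin, read 221 in matrix, 1937 in ORS and 7616 in basal epidermis, and Krtdap, a secreted protein of differentiating keratinocytes, read 557 in matrix, 2639 in ORS and 17132 in basal epidermis. The desmosomal cadherins Dsg1a and Dsc1 were higher, with Dsg1a at 2277 in matrix and 471 in ORS (4.83-fold) and Dsc1 at 1766 in matrix and 476 in ORS (3.71-fold). Krt1 and Krt10, the main suprabasal keratins, were within 2-fold between the follicle populations. Of 13 desmosome genes, 4 were higher and 0 lower, and their median log2 ratio of -0.22 became 0.11 with scaling to the hybridisation controls. Cornified envelope and barrier genes gave 1 higher and 6 lower of 20 measured, with Lor, loricrin, higher at 1077 in matrix and 352 in ORS (3.06-fold) and the protease Klk7 at 321 in matrix and 5452 in ORS (16.96-fold lower). Among adherens, gap and tight junction genes 4 were higher and 3 lower of 19, including Cdh1, E-cadherin, at 6747 in matrix and 15174 in ORS (2.25-fold lower).

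Interferon and antigen processing genes were lower in matrix, 14 of 18 measured with 0 higher, and a median log2 ratio of -1.45. Psmb8, an immunoproteasome subunit, read 362 in matrix and 3100.1 in ORS (8.56-fold lower). Tap1, which carries peptides to class I molecules, read 598 in matrix and 3629 in ORS (6.07-fold lower). B2m and H2-K1, the 2 chains of a class I molecule, were 2.79-fold and 2.60-fold lower, at 9870.3 and 8292 in matrix against 27586 and 21558 in ORS. Genes of the class I pathway were thus lower in matrix at each of these steps. Markers of immune cells moved the same way: 6 of 9 measured markers were lower and 0 higher, with a signal summed over the 14 matched markers of 1759 in matrix and 5646 in ORS. The other 5 matched markers were below the floor on both arrays, and the part of immune cells in the interferon, cytokine and class I values was not tested. H2-Aa, a class II chain of antigen-presenting cells, read 302 in matrix and 1503 in ORS (4.98-fold lower). AP-1 and immediate early genes gave 8 lower and 0 higher of 20, with a median log2 ratio of -0.60. Dusp1, a phosphatase induced by stress, read 5409.8 in matrix and 15634 in ORS (2.89-fold lower), and Fosb read 2584 in matrix and 7842 in ORS (3.04-fold lower).

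Glycolysis and glycogen genes gave 10 lower and 1 higher of 18 measured, with a median log2 ratio of -1.11. Slc2a1, the glucose transporter GLUT1, read 1731 in matrix and 7679.9 in ORS (4.44-fold lower), and Pygl, a glycogen phosphorylase, read 462 in matrix and 1557 in ORS (3.37-fold lower). Pfkp and Ldhb, a phosphofructokinase and a lactate dehydrogenase chain, were 7.79-fold and 4.82-fold lower. Aldoc was the gene higher in matrix, at 512 in matrix and 245 in ORS (2.09-fold), while Aldoa read 3789 in matrix and 12626 in ORS (3.33-fold lower). Of 11 PRC2 subunits, 1 was higher, Jarid2 (2.22-fold), and 0 lower, the higher count near the 8.60% of all measured genes. Ezh2 read 3578 in matrix and 2151 in ORS (1.66-fold), within 2-fold, and Ezh1 read 317 in matrix and 380.1 in ORS. Of 17 measured Hox genes, 4 were higher and 4 lower, and their median log2 ratio of -0.19 became 0.13 with scaling to the hybridisation controls. Besides Hoxc13 they included Hoxb6 (2.74-fold higher), Hoxc8 (3.21-fold lower) and Hoxc5 (at least 3.64-fold lower).

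Markers of cells outside both lineages were read next. Of 10 measured sebocyte genes, 9 were lower in matrix and 0 higher, with a summed signal of 12515 in matrix, 52548 in ORS and 13414 in basal epidermis. Pparg, the master regulator of sebocytes, read 16.9 in matrix and 1289 in ORS (at least 15.5-fold lower), Plin2, which coats lipid droplets, read 961 in matrix and 14169 in ORS (14.7-fold lower), and Scd1, a fatty acid desaturase, read 7506 in matrix and 24028 in ORS (3.20-fold lower). The sebaceous gland opens into the upper follicle. Like the sebocyte list, the upper follicle genes Krt79, Lrig1 and Gata6 were lower in matrix than in ORS. In basal epidermis Krt79, Lrig1 and Gata6 read 11582, 7845 and 758, well above matrix, whereas the sebocyte sum there was near that of matrix. The part of sebocytes in the values of these genes was not tested. Of 6 measured muscle markers, Acta2 and Tagln, which encode smooth muscle actin and a protein bound to it, were lower at 619.5 and 127 in matrix against 7544 and 2094 in ORS (12.2-fold and 16.5-fold lower), and the other 4 were within 2-fold. The skeletal muscle markers Acta1 and Des read 88.7 and 69.3 in matrix against 80.1 and 84.2 in ORS, near the floor. Melanocyte markers gave 2 higher and 1 lower of 12 measured, with a summed signal of 4246 in matrix and 2134 in ORS. Dct, a melanin enzyme, read 2245 in matrix and 445 in ORS (5.05-fold), and Kit read 489 in matrix and 70.3 in ORS (at least 5.87-fold), whereas Tyr and Mlana read 95.6 and 153 in matrix against 91.1 and 111 in ORS. Of 12 measured fibroblast markers, 6 were lower and 1 higher, with a summed signal of 21032 in matrix and 19444 in ORS. Thy1, a surface protein of fibroblasts, read 84.1 in matrix and 566 in ORS (6.73-fold lower). Col1a1 and Col3a1 were within 2-fold, at 633 and 3508 in matrix against 937 and 5993 in ORS. Dcn, decorin, was the 1 higher fibroblast gene, at 11209.8 in matrix, 928 in ORS and 1045 in basal epidermis (12.1-fold), with 1 of its 2 probe sets measured. Of 12 dermal papilla markers, 10 were matched and 3 measured, with 1 higher, Crabp1, at 253 in matrix and 66.6 in ORS (at least 3.04-fold). All 7 measured endothelial markers were within 2-fold, and of 2 measured Merkel cell markers Krt8 was lower, at 31.2 in matrix and 477 in ORS (at least 5.73-fold lower).

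Basal epidermis, the other WT population, was set beside both follicle populations. Of the 983 genes higher in matrix than in ORS, 752 (76.5%) were also at least 2-fold higher in matrix than in basal epidermis, against 11.3% of all genes measured in that pair, and 135 genes were at least 4-fold above both. These comparisons share the matrix array. Of the 1593 genes lower in matrix, 1072 (67.3%) were also at least 2-fold lower in matrix than in basal epidermis, against 13.8% of all genes measured in that pair, again with the matrix array shared. Members of this group could still differ between ORS and basal epidermis, as Sfrp1 did. For 63 (6.41%) of the higher genes ORS was also at least 2-fold lower than basal epidermis, against 4.15% of all genes measured in that pair, with the ORS array shared. For 398 (24.98%) of the lower genes ORS also exceeded basal epidermis 2-fold, against 5.88% of all genes measured in that pair, with the ORS array shared. At 4-fold, 99 genes had ORS above both. Cmah, an enzyme of sialic acid synthesis, led these at 33.7 in matrix, 2579 in ORS and 59.1 in basal epidermis. Of 6 Cmah probe sets, 4 were at least 2-fold lower in matrix than in ORS. Shisa2, an inhibitor of WNT and FGF receptors, read 103 in matrix, 2173 in ORS and 44.9 in basal epidermis, and Sema3e, a secreted guidance protein, read 205 in matrix, 2812 in ORS and 182 in basal epidermis. Adamts20, a secreted metalloprotease known in mice for a coat spotting mutant, read 261 in matrix, 3057 in ORS and 35.5 in basal epidermis. Tagln, Myl9, Far2 and Krtap17-1 were also among the 12 leading genes of this kind, and Tagln and Far2 are in the muscle and sebocyte lists above. On the 2KO ORS array Cmah read 142 and Far2 246, while Shisa2 read 2253 and Krtap17-1 read 3172.

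The 2KO pair, 2KO matrix over 2KO ORS, shares no array with the WT pair but differs from it in genotype. Its control probe sets differed too: the 3-prime to 5-prime ratio of beta-actin was 1.87 in 2KO matrix and 1.66 in 2KO ORS, and that of Gapdh was 0.999 in 2KO matrix and 0.820 in 2KO ORS, all above the WT values given earlier. The part of RNA quality in the differences between the pairs was not tested. Its targeted gene Ezh2 read 1725 in 2KO matrix against 3578 in WT matrix, and 378 in 2KO ORS against 2151 in WT ORS. Ezh1 read 89.4 in 2KO matrix against 317 in WT matrix, and 51.6 in 2KO ORS against 380.1 in WT ORS. Both genes were lower on both 2KO arrays. Of the genes higher in WT matrix, 974 were measured in the 2KO pair, 890 had the same sign and 352 (36.1%) were at least 2-fold higher in 2KO matrix, against 5.20% of the 12104 genes measured there. Of the genes lower in WT matrix, 1547 were measured, 1401 had the same sign and 697 (45.1%) were at least 2-fold lower, against 8.61%. The share of all measured genes with each sign in the 2KO pair was not taken, so the same-sign counts have no background beside them. The shared genes made up 35.8% of the genes higher in the WT pair and 55.9% of the 630 higher in the 2KO pair, and 43.8% of the genes lower in the WT pair and 66.9% of the 1042 lower in the 2KO pair. The median log2 ratio of the WT-higher genes was 1.34 in the WT pair and 0.82 in the 2KO pair, and that of the WT-lower genes -1.73 in the WT pair and -0.90 in the 2KO pair. These genes were chosen on the WT pair, and the 2 medians are therefore not of equal standing. Krt35 had a log2 ratio of 4.93 in the WT pair and 7.66 in the 2KO pair, Msx2 of 4.58 in the WT pair and 3.49 in the 2KO pair, and Krt15 of -2.90 in the WT pair and -2.11 in the 2KO pair. The Krt35 signal was 19670.4 in WT matrix and 18316 in 2KO matrix, but 645 in WT ORS and 90.8 in 2KO ORS. Krt25 likewise read 1052 in WT ORS and 135 in 2KO ORS. The ORS signal of these 2 keratins thus differed more between the genotypes than their matrix signal. Sox9 had -4.78 in the WT pair and -0.99 in the 2KO pair, and its signal was 2345 in 2KO matrix and 186 in WT matrix. Mitosis genes gave 26 higher of 29 in the WT pair and 21 higher of 29 in the 2KO pair. DNA replication genes did not keep their calls, with 9 higher of 30 in the WT pair and 0 higher of 30 in the 2KO pair. AP-1 and immediate early genes gave 8 lower of 20 in the WT pair and 0 lower of 20 in the 2KO pair. For immune cell markers, 6 were lower and 0 higher of 9 in the WT pair, against 1 lower and 4 higher of 11 in the 2KO pair. Sebocyte genes gave 9 lower of 10 in the WT pair and 3 lower of 9 in the 2KO pair, with a summed signal over the list of 12052 in 2KO matrix and 14143 in 2KO ORS. Differences between the pairs were not tested.

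**Figure D4:**
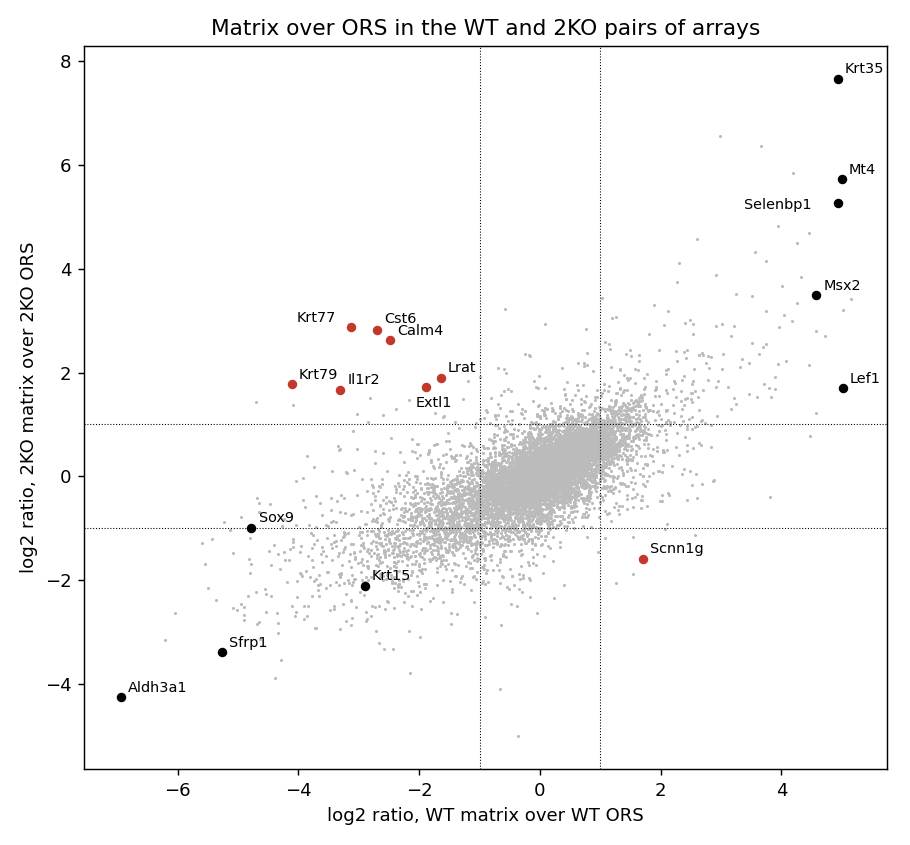
Log2 ratio of matrix over ORS in the WT pair (horizontal axis) against the 2KO pair (vertical axis) for genes measured in both, with 1 array per population and genotype and dotted lines at 2-fold. Markers and leading genes are black, and the 8 genes in red (Krt77, Cst6, Calm4, Krt79, Extl1, Il1r2, Lrat and Scnn1g) were at least 2-fold different in opposite directions.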

How the data were processed

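Total RNA of each sorted population was labelled with biotin by in vitro transcription, per the labels' protocols, and hybridised to 1 Affymetrix array. The deposited values are MAS5 signals, linear intensities with 1 value per probe set, per the submitters' processing notes (MAS5) and the series text (background subtraction of images); the MAS5 version is not given in the sources used here. A total of 45101 probe sets, 64 of them controls, and 0 columns of other samples make up the table. Genes were named from the platform annotation, with 34945 probe sets naming 1 gene, 932 several and 9160 unlisted; those with several genes or none were left out. The brightest probe set by mean log2 signal over the 6 arrays stood for each gene. Signals were floored at the median of all probe sets other than controls, and genes below it on both arrays counted as not measured. The number of arrays limits the precision, and no test was made.

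The members and the 40 gene lists (741 entries) were chosen with earlier results of these data known, and motifs, promoters and families after the values were seen. Named genes were eligible as markers, as the 15 largest and 15 smallest ratios, as the 10 largest and smallest among genes above the floor on both arrays, as up to 6 members of each list (every member for other cell types and lists of up to 12 genes), as the 12 leading genes of matrix or ORS over both other WT populations, and as the 8 leading genes opposite in the 2KO pair. Others named, such as Krt32, Mki67, Ccnb2, Cdh1, Mcm5, Axin2, Tcf7l2 or Wnt10b, were chosen after their values were seen. Promoters came from RefSeq (GRCm38.p6). The calling was run on simulated data with planted changes above the limit and an assumed noise. That run checks the calculation only, since the noise between real arrays is not known here. Alternatives were 2 floors, 3 scalings, 2 ways to join probe sets, removal of cross-hybridising probe sets and a 4-fold limit. Python 3.11.15, numpy 2.4.6 and pandas 2.3.3 were used.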

Additional observations from a re-analysis of the deposited data

Results flagged for a closer look

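Between the WT pair and the 2KO pair, 29 genes were at least 2-fold different in opposite directions, 7 of them higher and 22 lower in WT matrix than in WT ORS. These were 7 of the 974 WT-higher and 22 of the 1547 WT-lower genes measured in the 2KO pair. Among all genes measured in the 2KO pair, 8.61% were lower in 2KO matrix and 5.20% higher. With symbols that are only clone names left out, 28 genes remained, 6 higher and 22 lower. The 8 genes whose smaller absolute ratio was largest are given here, and their differences were not tested, since each value is 1 array. Krt77, a suprabasal keratin, had a log2 ratio of matrix over ORS of -3.13 in the WT pair and 2.87 in the 2KO pair, with 608 in 2KO matrix and 68.8 in 2KO ORS. Cst6, a protease inhibitor of differentiating epithelium, had -2.70 in the WT pair and 2.81 in the 2KO pair, with 4097 in 2KO matrix and 583 in 2KO ORS. Calm4, a calmodulin-like protein of the epidermis, had -2.48 in the WT pair and 2.62 in the 2KO pair, with 4078 in 2KO matrix and 663 in 2KO ORS. Krt79 had -4.11 in the WT pair and 1.78 in the 2KO pair, with 19517 in 2KO matrix and 5691 in 2KO ORS. All 4 genes were thus on the ORS side in WT and on the matrix side in 2KO. Extl1 had -1.88 in the WT pair and 1.72 in the 2KO pair, and Il1r2, a decoy receptor for interleukin 1, had -3.31 in the WT pair and 1.67 in the 2KO pair. Lrat, which esterifies retinol, had -1.64 in the WT pair and 1.90 in the 2KO pair. Of 2 Lrat probe sets, 1 was at least 2-fold lower in the WT pair, and the other had a log2 ratio of -0.66. Scnn1g, a subunit of the epithelial sodium channel, went the other way, with 1.70 in the WT pair and -1.59 in the 2KO pair. A signal lay under the floor for Krt77 and Lrat in the 2KO pair, Il1r2 and Scnn1g in the WT pair, and Extl1 in both. Those ratios are lower bounds in size. The early differentiation list gave 4 higher and 7 lower of 15 in the WT pair and 8 higher and 0 lower of 15 in the 2KO pair.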

How the results depend on the processing

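No paired analysis was possible because the labels give no replicate numbers and each group has 1 array, so no replicate could be left out. A fit of population and genotype over the 6 arrays was not made, since it would take the genotypes as replicates. Raising or lowering the floor changed the counts: at the 25th percentile of signals 2421 genes were lower, and at the 75th percentile 516 were higher and 760 lower. Scaling to the hybridisation controls gave 2032 higher genes, among them all 983 of the deposited scaling, and 1282 lower ones. A 4-fold limit gave 179 higher and 608 lower. The other alternatives (common median, quantile normalization, mean or median over probe sets, and leaving out cross-hybridising probe sets) kept both counts within 1.5 times, at 880 to 1300 higher and 1282 to 1573 lower genes. The alternatives were followed singly for 227 genes: the markers, the ranked genes and up to 6 differing members of each list. Of their 1777 ratios, 1730 stayed on their side of the limit, 47 moved across or beyond it and 0 reversed between calls. Counted by gene, 185 of the 227 kept direction and side under every alternative run. Many of these genes were picked for large ratios, so few of them could have reversed. Genes named in the text outside this set were not followed singly. For the 40 lists, 301 of 318 medians stayed, 17 moved and 0 reversed as calls, and 28 lists kept direction and side under every alternative run. Medians that changed sign under another floor were those of ephrins (-0.75, and 0.10 at the 75th percentile), junction genes (0.15 and -0.27 there), Hox genes (-0.19 and 0.73 there) and muscle markers (0.04, with -0.35 at the 25th and -2.89 at the 75th percentile). The cause was not tested. Signals near the floor, and the number of arrays, limit what can be read from small differences.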

Other observations

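Gene families were also read after the values had been seen, and their counts are descriptions. They overlap the lists, so their counts partly repeat results given above. Kif11, Kif20a, Kif23, Cenpa, Cenpe and Cenpf are also in the mitosis list, and Col17a1 and Col7a1 were given with the hemidesmosome genes. Among all measured genes, 8.60% were higher in matrix and 13.9% lower. Of 27 measured collagen genes, 21 were lower in matrix and 0 higher, with a median log2 ratio of -1.51. Col12a1, a fibril-associated collagen, read 119 in matrix and 3554 in ORS (29.9-fold lower), and Col4a1, a basement membrane collagen, read 1041 in matrix and 7089.8 in ORS (6.81-fold lower). Of 25 measured cytochrome P450 genes, 14 were lower and 0 higher, led by Cyp4b1 at 77.4 in matrix and 2813 in ORS (at least 33.8-fold lower). Glutathione S-transferases gave 7 lower and 0 higher of 15, with Gstm1 at 323 in matrix and 3059.6 in ORS (9.48-fold lower). Alcohol and aldehyde dehydrogenases went both ways, with 3 higher and 7 lower of 21, Aldh1a3 among the higher and Aldh3a1 and Adh7 among the lower.

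Of 26 measured kinesin genes, 9 were higher in matrix and 2 lower, and of 21 centromere protein genes 10 were higher and 2 lower. Cytosolic ribosomal protein genes mostly lay within 2-fold, with 1 higher (Rps4l) and 0 lower of 43 and a median log2 ratio of -0.04. Solute carriers gave 18 higher and 42 lower of 206, the higher count near the 8.60% of all measured genes. Slc30a1, a zinc exporter, read 9063 in matrix and 1595 in ORS (5.68-fold), on the same side as the metal-binding Mt4. Mt4 was the 1 higher gene of 3 measured metallothioneins, with 0 lower. Carriers related to Slc30a1 went both ways. Slc39a8 and Slc39a10 were 2.37-fold and 2.08-fold higher, while Slc30a4, Slc39a2 and Slc39a13 were 2.34-fold, 2.015-fold and at least 4.58-fold lower. Of 8 measured SOX genes, Sox21, a factor of the hair cuticle, read 2478 in matrix and 802 in ORS (3.09-fold), against Sox9 on the ORS side. Krt23 read 2403 in matrix, 183 in ORS and 67.7 in basal epidermis (13.1-fold over ORS). Igfbp4 read 1261 in matrix and 17678 in ORS (14.02-fold lower), beside Igfbp2.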
